A study of Mus musculus with 6 samples.

Results

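The genes described here encode the cytosolic sensors of RNA and DNA and the proteins that act directly beside them: Ddx58 (also named Rigi), Ifih1, Dhx58, Mavs, Cgas (also named Mb21d1), Tmem173 (also named Sting1), Zbp1, Eif2ak2, Adar and Trex1. They were taken by symbol, each matched to 1 Ensembl gene ID, and make up 10 of the 52856 rows of the deposited count table. All 10 passed the filter on low counts. RNA was sequenced from splenic CD4+ T cells of 8-week-old C57BL/6 mice, wild type (WT, 3 libraries) or miPEP31-/- (KO, 3 libraries). Cells of both genotypes had been activated for 48 hours with anti-CD3/28, antibodies that engage the T cell receptor complex and the costimulatory receptor CD28. The peptide miPEP31 is made from the precursor RNA of miR-31, and the comparison asks what its loss changes in these cells. The labels do not say how the allele was made, how the cells were purified, or whether each library came from a separate mouse, so the p-values measure the spread between these libraries, which may be technical.

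Cells recognise foreign or misplaced nucleic acid in the cytosol with a small set of receptors. RIG-I (from Ddx58) and MDA5 (from Ifih1) bind double-stranded RNA and signal through MAVS on mitochondria, and LGP2 (from Dhx58) binds the same kind of RNA but lacks the signalling domains. cGAS binds double-stranded DNA and makes a cyclic dinucleotide that activates STING (from Tmem173). Both arms converge on the kinase TBK1 and the transcription factor IRF3, which switch on type I interferon genes, and interferon in turn induces many of the sensors. ADAR1 edits adenosines in self double-stranded RNA, and TREX1 digests cytosolic DNA, so that both limit what the sensors can bind. In T cells these receptors are present but are known mainly from work in myeloid cells and fibroblasts.

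Library totals ran from 22865487 to 26295776 counts. Each sensor gene had between 266 and 7257 counts in a library. Mir31 had 0 counts in all 6 libraries, so the counts do not check the genotype labels. T cell markers were abundant, with summed levels of 2039 to 2166 CPM (a gene's counts scaled to a common library size, with TMM factors) in WT and 1518 to 1716 CPM in KO over 8 genes. Of these 8, 6 were lower in every KO library than in every WT library, as were 28.4% of all genes tested. Mean Cd4 levels were 456 CPM in WT and 302 CPM in KO, and mean Lck levels 435 and 427 CPM. These are bulk RNA levels, so fewer cells of a type and less RNA per cell cannot be told apart.

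Short stretches near the transcription starts are shown first, because most of these genes moved together and many interferon-induced genes carry a repeated GAAA motif, which ISGF3 and IRF factors bind. Promoter windows of 300 bases, from 250 before to 50 after a start on GRCm38.p6 (RefSeq), were matched for 7 of the 10 genes. Dhx58, Tmem173 and Zbp1 were not matched. The core motif GAAANNGAAA, searched on both strands, lay in the windows of 3 of the 7 matched genes and in 3.44% of all 32851 windows (3.99% of genes). Each line gives 30 bases, 5′ to 3′ on the gene's strand, with the match in capitals.
Ddx58: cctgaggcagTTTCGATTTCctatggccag
Ifih1: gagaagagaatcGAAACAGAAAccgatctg
Eif2ak2: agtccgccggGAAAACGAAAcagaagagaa
Adar: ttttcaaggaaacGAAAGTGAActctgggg
The Ddx58 stretch is chr4:40239804-40239833 (minus strand). The Ifih1 stretch is chr2:62646206-62646235 (minus strand) and the Eif2ak2 stretch is chr17:78882535-78882564 (minus strand). Their matches begin at transcribed base 3, 33 and 19, counted from 1 at the start. In Ddx58 the motif reads on the opposite strand. The Adar stretch, chr3:89730738-89730767 (plus strand), lies at the last of 3 RefSeq Adar starts. A short run of bases after that start was not found in any GENCODE M21 transcript of Adar. The stretch holds only the shorter motif GAAANNGAA, which overlaps the core motif by definition and was in 8.56% of all windows. The windows of Mavs, Cgas and Trex1 held neither motif. A match is a description of letters and not of binding.

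Nearly the whole set was higher in miPEP31-/- cells. Of the 10 genes, 9 rose, 0 fell and 1, Mavs, did not pass the test (edgeR quasi-likelihood test, Benjamini-Hochberg adjusted p under 0.05 over all 14387 genes tested). Across all genes tested 47.3% were called in either direction and 25.1% were called higher. None of the 10 was lower at an unadjusted p under 0.05 either, nor in DESeq2 or limma-voom (0 each). The same 9 genes had every KO library above every WT library, where 30.7% of all genes did. The median log2 fold change over the 10 genes was 1.52, from 0.02 to 3.85, against a median of 0.01 over all genes. Of the 9, 7 rose by at least 2-fold, and 6.74% of all genes were called higher by that much. The median and counts describe the set and are not a test of it.

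**Figure D1:**
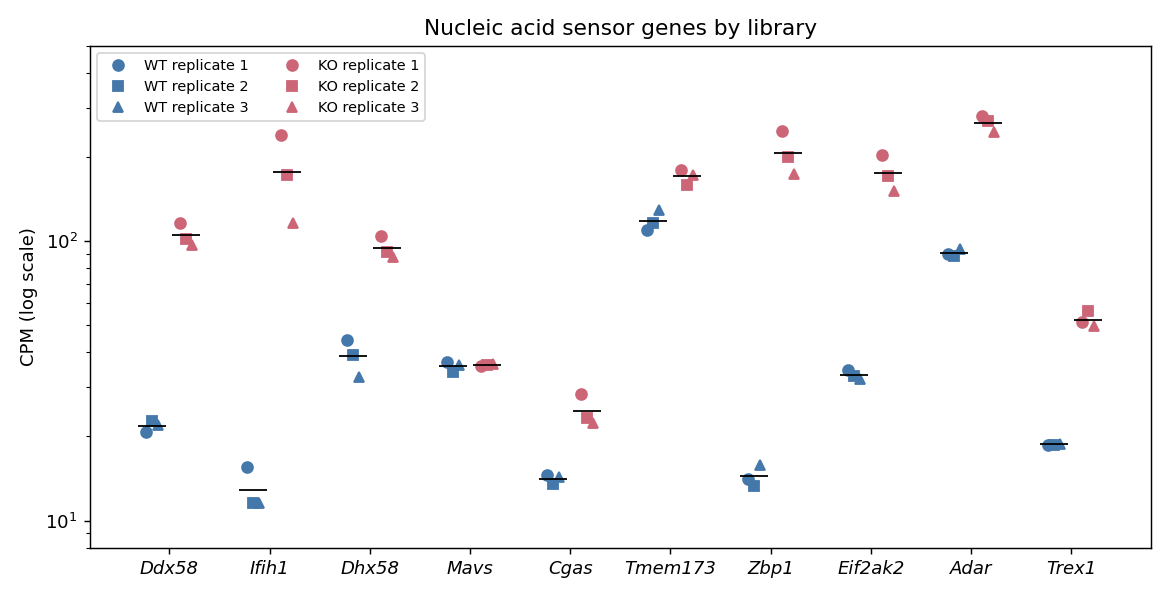
CPM on a log scale for each sensor gene, with WT libraries in blue, KO libraries in red, symbols for replicates and a black line for the group mean. KO libraries lie above WT libraries for every gene except Mavs, whose 3 KO libraries (35.9 to 36.4 CPM) lie inside the WT range of 34.1 to 37.0 CPM.

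Among the RNA sensors, Ifih1 had the largest change. Ifih1 (ENSMUSG00000026896, chromosome 2, 62595798 to 62646255, minus strand, GRCm38) stood at 15.6, 11.5 and 11.6 CPM in WT replicates 1, 2 and 3 and at 240, 173 and 117 CPM in the KO replicates. The groups did not overlap, but the KO libraries differed from each other 2.05-fold between replicates 1 and 3, the widest spread of any sensor gene. Its log2 fold change was 3.77 (SE 0.27, edgeR adjusted p = 3.97e-05), a 13.7-fold rise with a 95% interval of 8.89 to 21.1. The estimate was 3.49 without KO replicate 1 and 3.99 without KO replicate 3, the lowest and highest with 1 library left out. MDA5, its product, prefers long double-stranded RNA.

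Ddx58 (ENSMUSG00000040296, chromosome 4, 40203773 to 40239828, minus strand), whose product recognises RNA ends with triphosphates, had 20.7, 22.7 and 22.0 CPM in WT. It had 116, 102 and 96.8 CPM in KO. The KO libraries lay close together and far above WT. The log2 fold change was 2.27 (SE 0.09, edgeR adjusted p = 2.92e-06), or 4.82-fold. Dhx58 (ENSMUSG00000017830, chromosome 11, 100694884 to 100704271, minus strand) encodes LGP2, which modulates the other 2 receptors. It went from 44.2, 39.0 and 32.7 CPM in WT to 104, 91.7 and 87.7 CPM in KO, or 2.45-fold more (log2 fold change 1.29, SE 0.12, edgeR adjusted p = 1.08e-04). It was thus the least changed of the 3 receptor genes and the only one whose relative spread was larger in WT (14.9% of the mean) than in KO (9.28%).

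The make-up of the receptor pool differed between the genotypes. Per kilobase of exon, which allows levels to be compared between genes, the 3 receptors summed to 18.4, 16.6 and 14.5 CPM per kilobase in WT and to 77.8, 63.7 and 54.8 in KO. Dhx58 held 71.5% ± 2.46 of that sum in WT and 44.6% ± 3.96 in KO (SD, n = 3 each). Ifih1 held 9.55% ± 0.95 in WT and 32.4% ± 5.89 in KO. The share of Ddx58 overlapped between the groups, at 16.0%, 19.4% and 21.5% in WT and 21.2%, 22.7% and 25.0% in KO. WT cells thus carried mostly LGP2 transcripts among the 3, and KO cells carried LGP2 and MDA5 transcripts in more similar amounts.

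**Figure D2:**
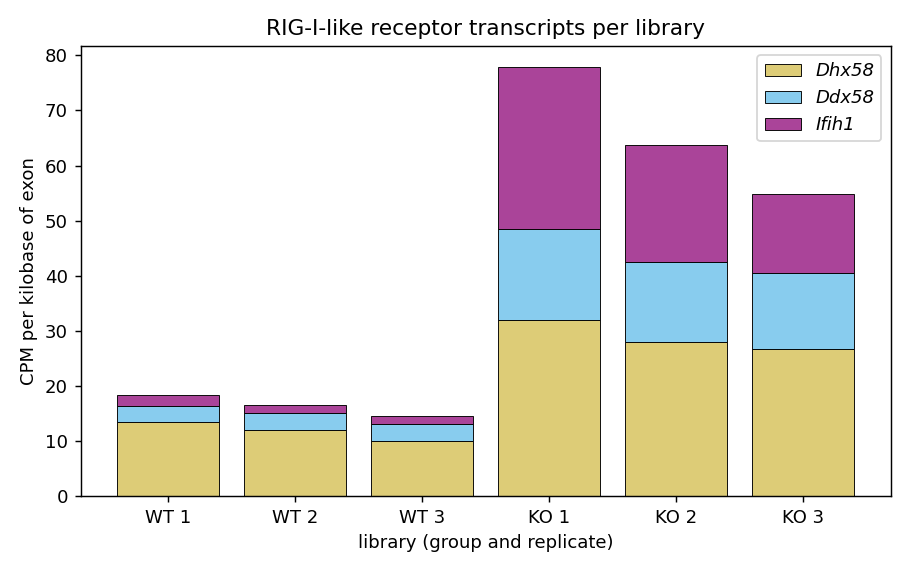
Stacked levels of the 3 RIG-I-like receptor genes in each library, in CPM per kilobase of exon. The stacks reach 14.5 to 18.4 in WT and 54.8 to 77.8 in KO, and the Ifih1 segment takes 26.1% to 37.7% of a KO stack against 8.52% to 10.4% of a WT stack.

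Mavs, the adaptor through which RIG-I and MDA5 signal, was the exception. Mavs (ENSMUSG00000037523, chromosome 2, 131234063 to 131248025, plus strand) had 37.0, 34.1 and 36.0 CPM in WT and 35.9, 36.1 and 36.4 CPM in KO. The KO values lie inside the WT range. The log2 fold change was 0.02 (SE 0.06, edgeR adjusted p = 0.842), with a 95% interval of -0.13 to 0.17, or 0.913-fold to 1.12-fold. Its sign turned to -0.02 with upper-quartile scaling and without WT replicate 2. The ratio of the 3 receptors to Mavs, per kilobase within a library, was 1.66, 1.63 and 1.35 in WT and 7.26, 5.89 and 5.04 in KO. That is 3.89-fold more receptor transcript per adaptor transcript on the geometric mean (exact two-sided permutation test, p = 0.1, the smallest that 3 against 3 libraries allow).

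The DNA arm had smaller estimates than the RNA receptors, although the 95% intervals of Cgas (0.55 to 1.06 on the log2 scale) and Dhx58 (1.02 to 1.56) overlap. Cgas (ENSMUSG00000032344, chromosome 9, 78430526 to 78443237, minus strand), the DNA-binding enzyme, had 14.5, 13.5 and 14.3 CPM in WT and 28.4, 23.2 and 22.4 CPM in KO. Every KO library exceeded every WT library. The log2 fold change was 0.80 (SE 0.11, edgeR adjusted p = 7.08e-04), or 1.75-fold. Tmem173 (ENSMUSG00000024349, chromosome 18, 35733679 to 35740554, minus strand), which encodes STING in the endoplasmic reticulum, had 109, 116 and 129 CPM in WT. Its KO libraries had 180, 159 and 173 CPM, or 1.44-fold more (log2 fold change 0.53, SE 0.08, edgeR adjusted p = 0.00123). Tmem173 had the highest mean level per kilobase of the 10 in both genotypes, although Zbp1 overlapped it in KO and exceeded it in KO replicate 1 (70.1 against 65.8 CPM per kilobase). It also had the smallest change of the 9 that rose. The ratio of Cgas to Tmem173 overlapped between the groups, at 0.0735 to 0.0881 in WT and 0.0863 to 0.104 in KO (exact permutation p = 0.2).

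Trex1, the exonuclease that removes cytosolic DNA before cGAS can bind it, rose by more than Cgas on the deposited counts. Trex1 (ENSMUSG00000049734, chromosome 9, 109057933 to 109059734, minus strand) had 18.7, 18.6 and 18.8 CPM in WT and 51.3, 56.4 and 49.6 CPM in KO. The 3 WT values were nearly identical. The log2 fold change was 1.48 (SE 0.07, edgeR adjusted p = 8.93e-06), or 2.80-fold. All 1147 annotated exon bases of Trex1 are also exon of Atrip, a gene of the DNA damage checkpoint on the same strand, so the deposited Trex1 counts are an estimated split of shared reads. Atrip had 15.5, 15.7 and 13.1 CPM in WT and 16.9, 15.9 and 14.2 CPM in KO. With the counts of both genes summed the log2 fold change was 1.02 (edgeR adjusted p = 3.67e-05). The ratio of Trex1 to Cgas per kilobase went from 4.64, 4.95 and 4.74 in WT to 6.51, 8.74 and 7.95 in KO (exact permutation p = 0.1), on the deposited split.

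Zbp1 had the highest estimate of the 10. ZBP1 binds Z-form nucleic acid and can trigger cell death through RIPK3. Zbp1 (ENSMUSG00000027514, chromosome 2, 173206612 to 173218923, minus strand) had 14.1, 13.3 and 15.8 CPM in WT and 247, 200 and 174 CPM in KO. The log2 fold change was 3.85 (SE 0.14, edgeR adjusted p = 2.61e-06), or 14.4-fold with a 95% interval of 11.4 to 18.1. That interval overlaps that of Ifih1, so the order of these 2 genes is not resolved.

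Eif2ak2 encodes PKR, a kinase that is activated by double-stranded RNA and stops translation by phosphorylating eIF2 alpha. Eif2ak2 (ENSMUSG00000024079, chromosome 17, 78852564 to 78882573, minus strand) had 34.7, 32.8 and 32.0 CPM in WT and 204, 171 and 151 CPM in KO. The log2 fold change was 2.40 (SE 0.11, edgeR adjusted p = 6.15e-06), or 5.29-fold. Adar (ENSMUSG00000027951, chromosome 3, 89715022 to 89753446, plus strand), whose product keeps self RNA from activating MDA5 and PKR and competes with ZBP1 for Z-form RNA, had 89.7, 88.3 and 94.0 CPM in WT. Its KO libraries had 281, 270 and 246 CPM, or 2.93-fold more (log2 fold change 1.55, SE 0.07, edgeR adjusted p = 4.79e-06). The gene makes a constitutive and an interferon-inducible protein form, and gene counts do not separate them. Of the Adar exon bases, 16.8% are also exon of Chrnb2 on the opposite strand, which had at most 7.85 CPM in any library.

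**Figure D3:**
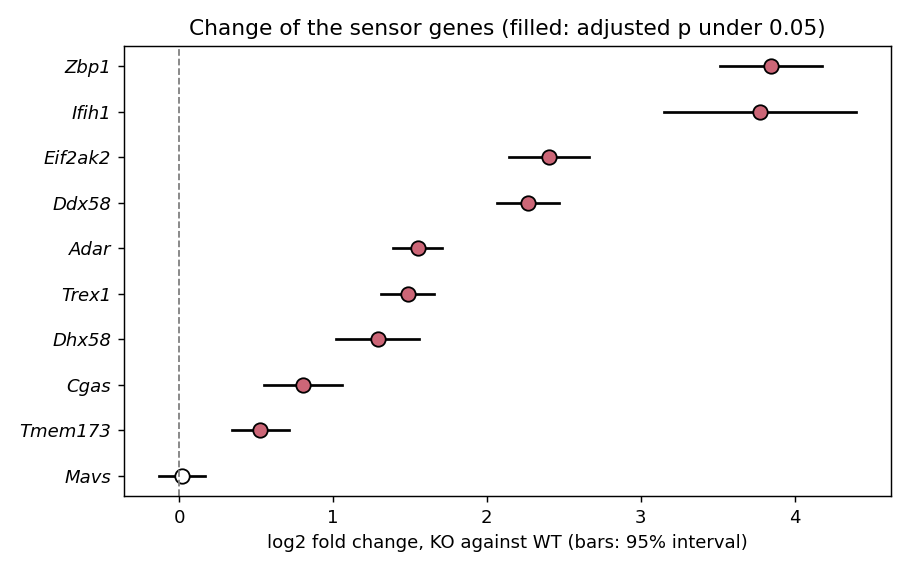
Log2 fold change, KO against WT, of the 10 genes from the edgeR fit, with 95% intervals, and filled points for adjusted p under 0.05. Zbp1 (3.85) and Ifih1 (3.77) lie at the top and Mavs (0.02) at 0.

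Adar thus rose, with a smaller fold change than the sensors it restrains. Per kilobase, Adar over Ifih1 was 5.79, 7.71 and 8.17 in WT and 1.18, 1.57 and 2.12 in KO. Adar over Eif2ak2 went from 1.63, 1.69 and 1.85 to 0.867, 0.992 and 1.03. Zbp1 over Adar went from 0.362, 0.346 and 0.386 to 2.02, 1.70 and 1.63, so that Zbp1 transcripts were fewer than Adar transcripts in every WT library and more in every KO library. Dhx58 over Ifih1 was below the WT range, going from 7.06 to 8.46 in WT to 1.09 to 1.88 in KO. Of the 8 ratios computed, several of which share Ifih1 or Adar and so are not separate observations, 7 had no overlap between the groups. Each of those 7 had an exact permutation p = 0.1, or 0.114 after Benjamini-Hochberg adjustment over the 8, and so none can pass at this number of libraries. A ratio within a library does not depend on how libraries are scaled.

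**Figure D4:**
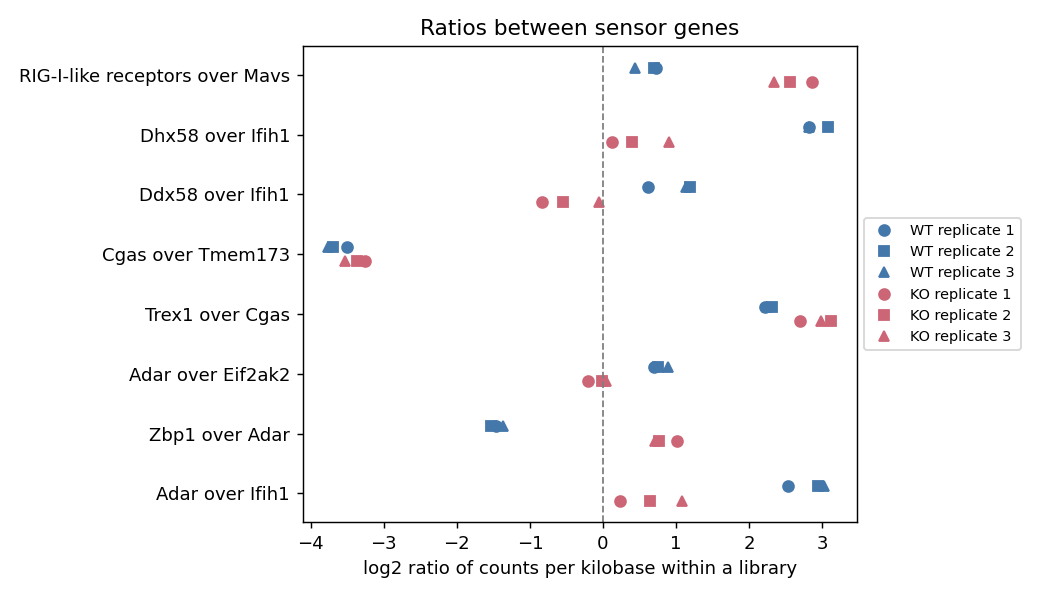
Log2 ratios of counts per kilobase between sensor genes within each library, with WT in blue, KO in red and symbols for replicates. The groups are separate for every ratio except Cgas over Tmem173. Among the separate ratios KO replicate 3 lies nearest to WT, except for Trex1 over Cgas, where KO replicate 1 does.

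The order of the transcripts by level per kilobase shifted accordingly. In WT it ran from Tmem173 (43.2 CPM per kilobase) over Trex1 (16.3), Dhx58 (11.8), Adar (11.2), Mavs (10.7), Eif2ak2 (6.49), Zbp1 (4.08), Cgas (3.42) and Ddx58 (3.09) to Ifih1 (1.58). Dhx58 overlapped Adar and Adar overlapped Mavs over their libraries, and the other neighbours were apart. In KO it ran from Tmem173 (62.2) over Zbp1 (58.7), Trex1 (45.7), Eif2ak2 (34.3), Adar (32.7), Dhx58 (28.9), Ifih1 (21.6), Ddx58 (14.9) and Mavs (10.8) to Cgas (5.98). There Tmem173 and Zbp1 overlapped, as did each neighbouring pair from Eif2ak2 down to Ddx58. Zbp1 moved from the seventh place to the second and Mavs from the fifth to the ninth. With the longest transcript as the length, Ddx58 stood seventh in WT, ahead of Zbp1 at place 8 and Cgas at place 9. With that length Adar and Eif2ak2 changed places in KO.

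The KO libraries differed among themselves. Replicate 1 was the highest of the 3 KO libraries for 8 of the 9 genes that rose, and replicate 3 the lowest for 8. Among the 3609 genes called higher in the whole table, those shares were 50.2% and 45.4%. Both places held together for 7 of the 9, and for 35.4% of those 3609 genes. Spread in KO, as SD over mean, ran from 0.692% for Mavs to 34.9% for Ifih1. All 9 calls were kept when any 1 library was left out.

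Levels of markers of other cell types are given beside these genes. Counts of markers above WT in every KO library are to be read against 30.7% of all genes tested. Summed dendritic cell markers were 56.3 to 63.5 CPM in WT and 256 to 366 CPM in KO, with 3 of 8 genes above WT in every KO library and Clec9a at 0 throughout. Bst2, itself interferon-induced, carried this sum: without it the range was 16.2 to 19.2 CPM in WT and 28.8 to 38.8 CPM in KO. Summed macrophage or monocyte markers were 34.6 to 42.8 CPM in WT and 88.6 to 125 CPM in KO, with 3 of 9 genes above WT and Adgre1, C1qb and Fcgr1 at 0. Without Mpeg1 and Ctss that sum was 0.192 to 0.363 CPM in WT and 0.438 to 0.717 CPM in KO, so the remaining macrophage genes were near 0 in both. These 3 genes were singled out after their values were seen. NK cell markers summed to 5.09 to 7.49 CPM in WT and 10.5 to 21.9 CPM in KO (1 of 4 above, Eomes). B cell markers summed to 54.9 to 83.0 and 62.6 to 114 CPM (2 of 6 above). CD8 T cell markers summed to 12.5 to 15.8 and 15.9 to 36.9 CPM (1 of 2 above). Neutrophil markers summed to 0.760 to 1.44 CPM in WT and 0 to 0.223 CPM in KO. Of these 5 genes 1, Ly6g, was below WT in every KO library, as were 28.4% of all genes tested. S100a8, S100a9 and Retnlg were at 0. The part of other cell types in the sensor results was not tested.

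Genes that work around the sensors are given by list, and each gene said to rise or fall passed the same edgeR threshold. Changes are log2 fold changes unless CPM is named. The counts of each list are to be read against all genes tested, of which 25.1% were higher and 22.2% lower. Of 22 tested cofactors and regulators of the RNA receptors, 12 rose (54.5%), 3 fell (13.6%) and 7 did not pass, with a median log2 fold change of 0.34. Trim25, a ubiquitin ligase that acts on RIG-I, rose by 1.23 (SE 0.08, edgeR adjusted p = 2.0e-05), from 94.0 ± 2.94 to 221 ± 18.9 CPM (SD, n = 3). Ddx60, a helicase described as a cofactor of the receptors, rose from 0.902 ± 0.0747 to 18.1 ± 6.48 CPM, and Nlrc5, a regulator of MHC class I genes that also binds the receptors, rose by 1.26 (SE 0.09). Mex3c rose by 0.94 (SE 0.07). The number that fell was 1 without WT replicate 2 or 3 and 1 with a replicate block.

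Downstream of the adaptors, 15 of 21 tested genes of the TBK1 and IRF3 relay rose (71.4%, against 25.1% of all genes), 2 fell (9.52%, against 22.2%) and 4 did not pass (median log2 fold change 0.43). Irf7, the interferon-induced relative of IRF3, had the largest rise at 6.31 (SE 0.19), and Irf5 rose by 1.42 (SE 0.09). Chuk, an IkB kinase gene, rose by 0.56 (SE 0.07). Tbkbp1, an adaptor of TBK1, fell by 0.75 (SE 0.08). Most of these shifts were smaller than those of the receptors.

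Of the genes for STING transport and for handling its cyclic dinucleotide ligand, 7 of 21 were higher (33.3%), 4 lower (19.0%) and 10 not past the test (median -0.01). These shares are near those of all genes, 25.1% and 22.2%. Trim56, a ubiquitin ligase of the pathway, rose by 1.02 (SE 0.10). Lrrc8c, a channel subunit that can carry cyclic dinucleotides, rose by 0.55 (SE 0.06). Nploc4 rose by 0.36 (SE 0.06). Of the nucleic acid clearance genes 9 of 24 rose (37.5%), 5 fell (20.8%) and 10 did not pass (median 0.06), so that the share lower was near that of all genes. The lysosomal ribonuclease genes Rnaset2b and Rnaset2a rose by 1.13 (SE 0.06) and 0.60 (SE 0.06). They are close copies, so the split of reads between them is uncertain. Sidt2 and Lsm11 fell by 0.61 (SE 0.06) and 0.42 (SE 0.09). The clearance genes called higher were 2 without WT replicate 1, 4 without WT replicate 2 or 3 and 3 without KO replicate 2, and 3 were called lower when either WT replicate 2 or KO replicate 2 was left out.

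The endosomal receptors and their partners, which sense nucleic acid taken up from outside, had 9 of 13 tested genes higher (69.2%, against 25.1% of all genes), 2 lower (15.4%, against 22.2%) and 2 not past the test (median 0.49). Tlr9, a receptor for unmethylated DNA, rose from 0.446 ± 0.157 to 3.15 ± 0.675 CPM and Unc93b1, its chaperone, by 0.90 (SE 0.11). The protease genes Ctsb and Ctss rose by 0.58 (SE 0.06) and 0.72 (SE 0.10), and Ctss is also among the macrophage markers above. The number that fell was 1 when replicate 2 or 3 of either genotype was left out, with plain library sizes, or with a replicate block. Of 16 other DNA sensor and inflammasome genes 7 rose (43.8%), 4 fell (25.0%) and 5 did not pass (median 0.04), and the share lower was near that of all genes. Ifi204, a relative of the DNA sensor IFI16, rose from 0.355 ± 0.149 to 27.6 ± 7.54 CPM. Ifi203 rose from 1.75 ± 0.0217 to 81.9 ± 40.6 CPM and Ifi211 from 2.16 ± 0.596 to 69.0 ± 28.0 CPM. These genes have close paralogs that can share reads, so their values are uncertain. Casp1, the inflammatory caspase, rose by 2.11 (SE 0.18).

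In the cell death pathway of ZBP1, 5 of 11 genes rose (45.5%, against 25.1% of all genes), 1 fell (9.09%, against 22.2%) and 5 did not pass (median 0.09). Mlkl, the pore-forming executioner of necroptosis, rose by 1.70 (SE 0.13), from 12.9 ± 1.69 to 41.9 ± 5.75 CPM. Ripk1 rose by 0.54 (SE 0.07) and Cflar, which restrains caspase-8, by 0.33 (SE 0.06). Ripk3, the kinase between ZBP1 and MLKL, stood at 67.9 ± 2.31 and 58.1 ± 12.2 CPM with overlapping groups (edgeR adjusted p = 0.208). Ripk3 was singled out after its value was seen. The gene that fell was not called without any 1 WT library or KO replicate 2, with plain library sizes, or with a replicate block (0 lower), and 2 were lower without KO replicate 3.

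Eif2ak2 was set beside a list of the other eIF2 alpha kinases, its phosphatase, eIF2 subunits, Eif2b1, Eif2b5, Atf4, Dnajc3 and Nck1. Of these 14 genes 6 were higher (42.9%, against 25.1% of all genes), 2 lower (14.3%, against 22.2%) and 6 not past the test (median 0.15). Atf4, whose translation eIF2 alpha phosphorylation favours, rose by 0.73 (SE 0.09). Ppp1r15b, a subunit of the eIF2 alpha phosphatase, rose by 0.45 (SE 0.06) and Dnajc3, an inhibitor of PKR, by 0.45 (SE 0.08). Eif2ak3, the kinase of the endoplasmic reticulum stress arm, fell by 0.64 (SE 0.12). With any 1 library left out, 4 to 5 genes of the list were higher. The number lower was 1 without WT replicate 2 or 3 or KO replicate 2, and 4 without KO replicate 1. The other kinase genes, named after their values were seen, were Eif2ak4, which rose by 0.20 (SE 0.06, edgeR adjusted p = 0.0324), and Eif2ak1, at 0.16 (SE 0.06, edgeR adjusted p = 0.0683).

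Of 17 tested relatives of Adar and other genes for binding double-stranded RNA, 4 rose (23.5%, against 25.1% of all genes), 2 fell (11.8%, against 22.2%) and 11 did not pass (median -0.06). Both that fell were genes of the adenosine deaminase family. Adarb1, which encodes ADAR2, fell by 0.75 (SE 0.16), from 133 ± 5.96 to 79.0 ± 19.5 CPM. Adarb2, at a low level, fell by 1.22 (SE 0.22), from 3.81 ± 0.791 to 1.63 ± 0.119 CPM. Son and Zfr rose by 0.30 (SE 0.06) and 0.40 (SE 0.09). The number higher was 2 without WT replicate 1 or 2.

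**Figure D5:**
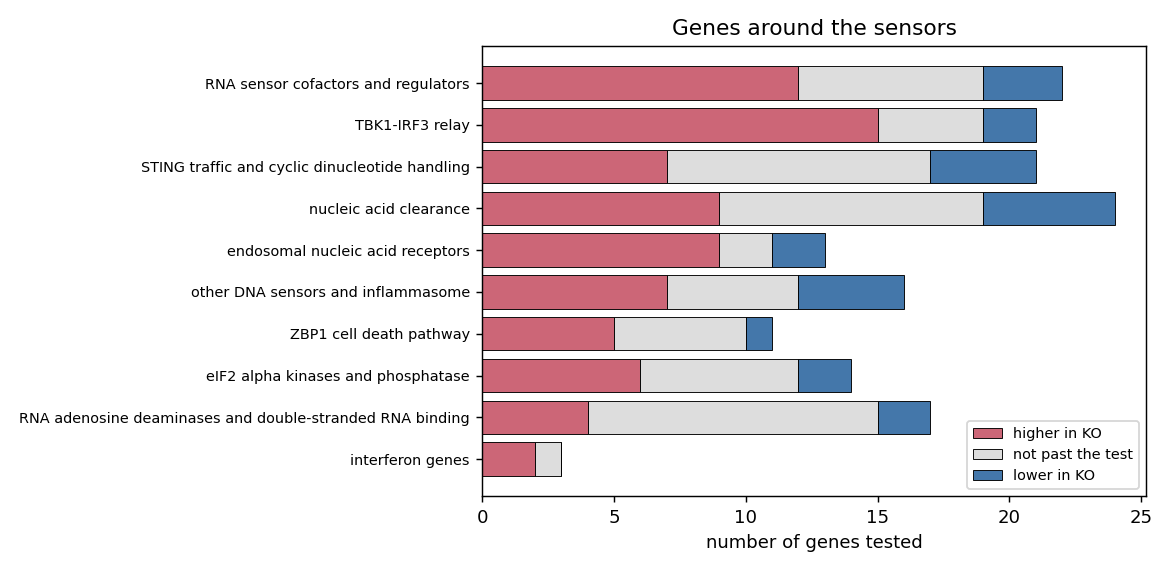
Number of tested genes in each list of genes around the sensors that were higher in KO (red), lower in KO (blue) or not past the edgeR test (grey). The relay of TBK1 and IRF3 has 15 of 21 higher, and the double-stranded RNA binding list has 11 of 17 not past the test.

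The genes that the sensors ultimately switch on were at the floor of detection in WT. Over 15 type I interferon genes the libraries held 2.37, 8.03 and 4.26 estimated counts in WT and 262, 107 and 49.3 in KO. Of these genes 2 had a count in any WT library and 12 in any KO library. Ifnb1 had 0, 1 and 0 counts in WT and 52, 26 and 9 in KO and was not tested, being under the filter. Of the 3 interferon genes that were tested, Ifna2 and Ifnl2 were called higher and Ifng, the T cell interferon, did not pass. Ifnb1 and Ifng were singled out after their values were seen. Ifnl2 had 0, 0 and 2 counts in WT and 141, 95 and 20.5 in KO (edgeR adjusted p = 0.00165), so its WT level rests on 1 library. Ifna2 had 0 counts in every WT library and 117, 38 and 13 in KO, and edgeR called it at an adjusted p of 0.00891, which became 0.168 when no filter on low counts was used. In this list 5 genes were called higher without any 1 WT library, without KO replicate 3 or without the low-count filter. The alpha and lambda genes have close paralogs, so their counts are uncertain. The summed interferon counts were highest in KO replicate 1 and lowest in KO replicate 3, as were 7 of the 9 sensor genes that rose. That order also held for 35.4% of the 3609 genes called higher. A relation between interferon and sensor levels was not tested.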

How the data were processed

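The authors deposited estimated counts per gene, most but not all of them whole (72.2% of values above 0), and these were rounded before testing. Bowtie 0.12.2 and the build mm8 appear in the submitters' processing notes with no role attached. The sources used here do not give how reads were counted, nor the annotation and strand setting, so genes that overlap or lie antisense may share reads. Annotation is GENCODE M21 (GRCm38), matched by gene ID. MSTRG rows (0.903% to 1.56% of counts) stayed in. A second deposited table of 30 genes holds no sensor gene and was not used.

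Genes were kept with filterByExpr (minimum count 10), libraries scaled with TMM, and groups compared with the quasi-likelihood test of edgeR 4.0.16 (R 4.3.3), robust and without covariates. Each SE was derived from the F statistic, by dividing the unshrunk log2 fold change by its root. Levels per kilobase use the union of exons. Ratios were compared with exact permutation tests in scipy 1.17.1. Alternatives used DESeq2 1.42.0, limma 3.58.1, other scalings and filters, a replicate block and each library left out. The script was tested on simulated data. From each list around the sensors, up to 4 genes past the threshold with the smallest p are named, and from marker lists those most abundant or at 0. Some genes that this rule takes are not reported here. The sensor genes and lists were chosen with earlier results of these data known.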

Additional observations from a re-analysis of the deposited data

How the results depend on the processing

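Each of the 9 sensor genes that rose kept its direction and its call under all 14 other settings tried, and Trex1 also with Atrip counts added, an alternative chosen after seeing the data (1.02 against 1.48). Left-out libraries gave 9 higher and 0 lower among the sensors every time, 2723 to 3655 higher and 2419 to 3594 lower among all genes, and -0.019 (without WT replicate 2) to 0.041 for Mavs, which was -0.018 with upper-quartile scaling. Same-numbered WT and KO libraries did not deviate together (correlations -0.0008 to -0.0155, against -0.0122 to 0.0224 for differently numbered ones). These correlations cannot tell whether same-numbered libraries shared a litter or a day, which the labels do not say. With a replicate block 3049 genes were higher and 2687 lower, the sensors kept 9 and 0, and fewer list members were lower: 1 RNA cofactor, 1 endosomal gene and 0 ZBP1 pathway genes. With plain library sizes 1 endosomal and 0 ZBP1 pathway genes were lower. Interferon genes called higher were 5 without the low-count filter and 0 with at least 1 CPM in 3 libraries, where fewer genes are tested. With libraries left out, the counts higher and lower ranged as follows. RNA cofactors had 9 to 12 higher and 1 to 3 lower, and relay genes 11 to 15 higher and 2 lower. STING genes had 6 to 7 higher and 3 to 6 lower, and clearance genes 2 to 10 higher and 3 to 6 lower. Endosomal genes had 7 to 9 higher and 1 to 2 lower. Other DNA sensor genes had 6 to 7 higher and 3 to 6 lower, and ZBP1 pathway genes 5 higher and 0 to 2 lower. For eIF2 alpha genes 4 to 5 were higher, below the 6 with all libraries, and 1 to 4 lower. Double-stranded RNA binding genes had 2 to 5 higher and 2 to 3 lower, and interferon genes 2 to 5 higher and 0 lower.

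The longest transcript as the length raised levels per kilobase, as its construction requires, to (WT and KO) 5.62 and 27.1 for Ddx58, 2.36 and 32.3 for Ifih1, 16.0 and 39.2 for Dhx58, 11.7 and 11.8 for Mavs, 51.5 and 74.2 for Tmem173, 7.69 and 40.7 for Eif2ak2 and 15.3 and 45.0 for Adar, and to 17.3 in WT for Trex1. The highest KO sum of dendritic cell markers was 38.8 CPM without Bst2 and that of macrophage markers 0.717 CPM without Mpeg1 and Ctss. The shorter promoter motif was in 4 of 7 matched genes and in 9.76% of all genes with a window. For Adar it lay only in the window of the last start, described above. Depth limits the interferon genes, most of which had too few counts to test.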
